A study of Zea mays with 58 samples.

Results

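The 262 genes described here were chosen by their time course in nitrogen-supplied maize roots: they were higher at 30 or 45 min after transfer than at 5 min and close to, or below, the 5 min level at 120 min. They are 262 of the 46335 features counted in the study. Roots of B73 maize seedlings, 10 days old and kept without nitrogen for the last 2 days, were moved at time 0 to fresh medium and frozen at 9 times between 5 and 120 min. N roots received 20 mM KNO3 and 20 mM NH4NO3, with part of the nitrogen as a heavy isotope, and noN roots received 20 mM KCl, so that the media differed in nitrate, ammonium and the amounts of potassium and chloride. All seedlings had been on nitrate-free medium since day 6 and had their endosperm removed by hand on day 8. Each of the 9 N groups had 3 libraries, each noN group had 3 except noN at 120 min with 4, and the time 0 group existed only as noN, which gave 58 libraries in 19 groups. A library held the pooled roots of 3 seedlings of 1 inbred line, and its reads came from the 3′ ends of polyadenylated RNA.

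Nitrate acts in roots as a nutrient and as a signal. In Arabidopsis, the transcription factor NLP7 binds nitrate and moves into the nucleus within minutes, and genes for nitrate transport and reduction and for regulators are among the first to be transcribed. Such responses often pass: transcripts climb soon after supply and return as repressors and the products of assimilation accumulate, while ammonium and the handling of plants bring changes of their own.

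The choice used L, the mean over the libraries of a group of log2(CPM + 1), with CPM the counts per 1000000 counts of the library. A gene had to reach an L of 3 in at least 1 of the 19 groups, which 16512 features did. The larger of L in N at 30 min and N at 45 min had to lie at least 0.8 above L in N at 5 min, which 1084 of those did. L in N at 120 min had to lie less than 0.4 above L in N at 5 min, which left 277, and 15 regulators of the authors' network were set aside. A further 772 genes that are no regulators met the rise but not the late limit.

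The values that chose the genes are given as a description. The rise had a median of 1.08 log2 units, with quartiles of 0.91 and 1.35 and a range of 0.80 to 2.80. It was at least 1 in 156 genes and at least 2 in 14. L in N at 120 min minus L in N at 5 min had a median of 0.04 and ran from -2.04 to 0.40. The gene nearest inside the rise limit had a rise of 0.801 and a late difference of -0.30, and the nearest outside had 0.799 and 0.15. The gene nearest inside the late limit had a late difference of 0.396 and a rise of 1.49, and the nearest outside had 0.402 and 1.03. In 226 genes all 3 libraries of N at 30 min, or all 3 of N at 45 min, lay above all 3 of N at 5 min. The choice itself favours this separation, and its share over all genes tested was not counted, so the count is no support for the rise.

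The smallest library held 1978039 counts, the median one 2617921 and the largest 3790442. The median count of the 262 genes in a library ran from 19 to 68.5, so that many of them rest on few counts per library. Libraries also differed in makeup: the mean log2 exon length of the counted genes up to 45 min was 10.98 ± 0.017 in N libraries (SD, n = 18) and 11.05 ± 0.032 in noN libraries (SD, n = 21). From 60 min on it was 10.99 ± 0.0053 in N libraries (SD, n = 9) and 10.99 ± 0.011 in noN libraries (SD, n = 10). The part of that makeup in the early contrasts between media was not tested beyond a recount with each library's length trend removed, which gave 80 higher and 32 lower at 20 min (83 and 26 without that step).

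The 262 genes were not of 1 kind. In 48 of them (18.3%), the deviations of single libraries from their group means followed 1 shared component, with a correlation of 0.75 or higher over 58 libraries and a median of 0.93. The highest such correlation among the other 214 was 0.58, so that a gap separated the sets. This set was found after the values were seen and is a description without a test. Of the 18872 genes tested, 314 (1.66%) passed the same correlation limit of 0.6.

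The 48 genes differed widely between libraries of 1 group. Their summed level was 4876 CPM in noN at 20 min replicate 1, against 299.8 and 365.6 in replicates 2 and 3. In N at 30 min, 1654.1 CPM fell to replicate 3, against 487.9 and 407.8 in replicates 1 and 2. In N at 45 min the sums were 2093.7, 739.1 and 606.3. All 3 libraries of N at 5 min (282.7 to 439.8), of N at 20 min (326.5 to 413.7) and of N at 120 min (287.3 to 346.0) were low. All 3 libraries of noN at 15 min (2743.3 to 4128) and of noN at 90 min (2852.8 to 4375) were high. The groups that bound the chosen shape, N at 5 and 120 min, are thus among the low ones for these genes.

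The pooled within-group SD of log2(CPM + 1) had a median of 1.13 in the 48 genes and 0.38 in the other 214. The 48 genes had no highest group in N: 20 were highest in noN at 15 min and 28 in noN at 90 min. Their median exon length was 1007 bases, against 1804 in the other 214. None of the 48 is a target in the authors' network. What set these genes in the high and low libraries was not tested, and counts below are given for the 262 genes with the share that fell to the 48 where it matters. In whole-root libraries, fewer cells of a type and less RNA per cell cannot be told apart.

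**Figure D1:**
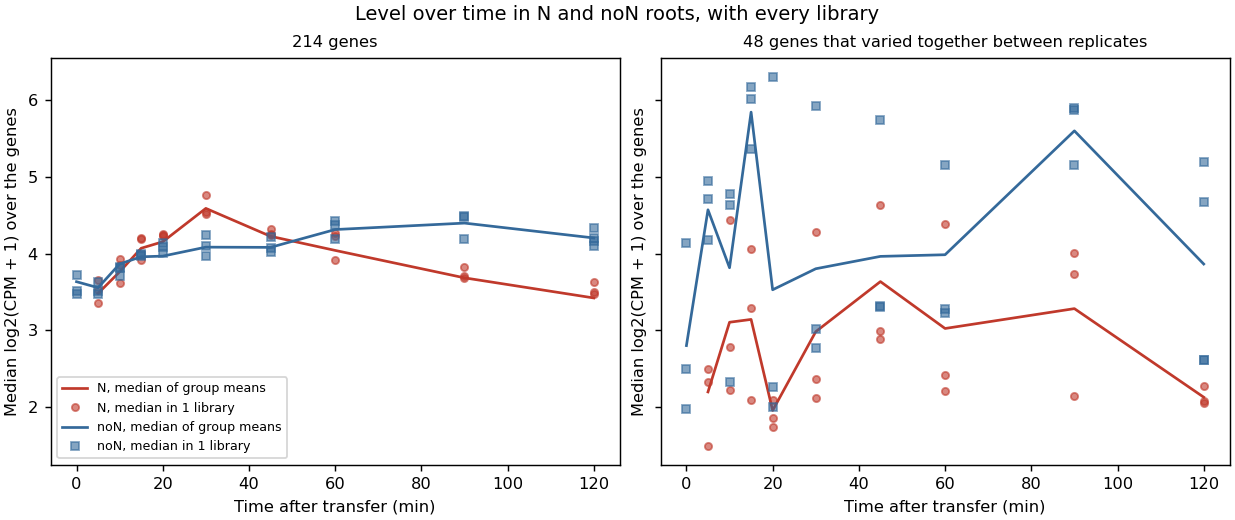
Median log2(CPM + 1) over the genes (y) against minutes after transfer (x) for the 214 genes (left) and the 48 that varied together between replicates (right). Lines join medians of group means and points are single libraries of N (red circles) and noN (blue squares): libraries of the 214 genes lie close together, with N highest at 30 min and noN at 90 min, while those of the 48 genes spread over several log2 units within a group.

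For the other 214 genes, the course in N is a description of the choice itself, which fixed a rise by 30 or 45 min and a return by 120 min, while noN groups entered it only through the level floor. Their median L in N, in the order of the harvests between 5 and 120 min, was 3.48, 3.76, 4.07, 4.15, 4.59 (30 min), 4.23, 4.04, 3.68 and 3.42. In noN, with time 0 as the start, it was 3.63, 3.55, 3.86, 3.96, 3.97, 4.08 (30 min), 4.08, 4.31, 4.40 and 4.20. The median in noN was highest at 90 min and at 120 min was still above its start, also without replicate 4 of noN at 120 min (4.22). That library differed most from the others of its group, with a chi-square over all counts of 12.2 to 14.1 per degree of freedom, against at most 9.09 in all other replicate pairs. Among the N groups, 117 of the 214 had their highest L at 30 min and 44 at 45 min, the times the choice used, and 21 each at 20 and 60 min. Over all 19 groups, 107 were highest in an N group and 107 in a noN group, 61 of these in noN at 60, 90 or 120 min (65 without replicate 4 of noN at 120 min).

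**Figure D2:**
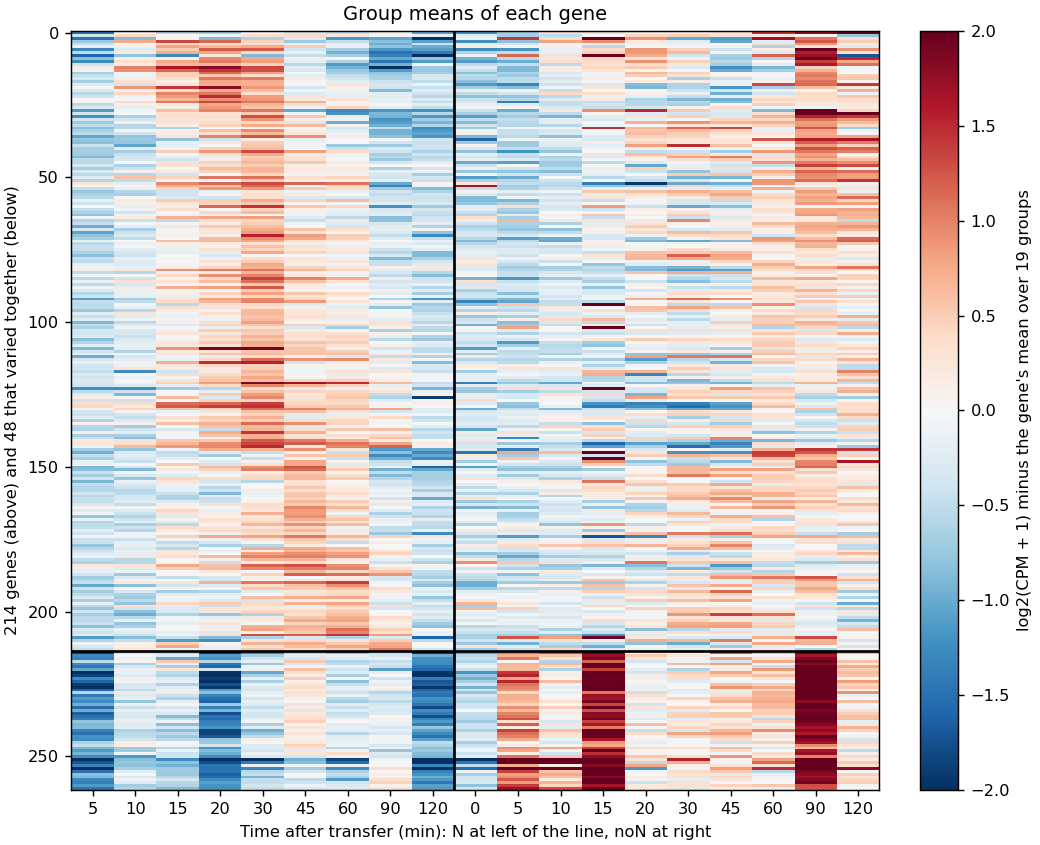
Group mean log2(CPM + 1) of each of the 262 genes minus its mean over the 19 groups (colour), with time after transfer in minutes across the page, N left and noN right of the upright line. The 214 genes above the level line are ordered by the time of their highest N group, and the 48 genes below it are high in noN at 15 and 90 min and low in N at 5, 20 and 120 min.

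The N groups at 10, 20, 60 and 90 min took no part in the choice by shape, and they were used to test the course again. They could enter the choice through the level floor: a gene with an L of 3.38 in N at 20 min stayed under 3 in every other group. Genes that met the floor in this way were not set aside. The mean of N at 20 and 60 min was set against the mean of N at 10 and 90 min. With edgeR's quasi-likelihood test and Benjamini-Hochberg adjustment over all 18872 genes tested, 89 of the 262 genes (34%) were higher at an adjusted p under 0.05, against 5.28% of all genes tested. None of the 262 was lower, against 3.56% of all genes tested. An unadjusted p under 0.05 in either direction was found in 143 of the 262. The share of all genes tested was not counted for it, so that this number cannot be set against a background. All 89 belonged to the 214 genes, in which the median log2 fold change was 0.61 and 201 lay above 0. The median over all genes tested was -0.01. In the 48 genes the median was -0.82 with 46 below 0.

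The early limb and the late limb, taken singly, gave fewer calls than this combined contrast. N at 20 min was higher than N at 10 min in 32 of the 262 genes (12.2%, against 1.29% of all genes tested) and lower in 0 (against 0.435%). All 32 belonged to the 214, whose median log2 fold change was 0.67. In 110 of the 262, all 3 libraries of N at 20 min lay above all 3 of N at 10 min (42%, against 11.1% of all genes tested). N at 90 min was lower than N at 60 min in 13 genes (4.96%, against 0.562%) and higher in 0 (against 0.355%), and 194 of the 214 lay below 0 with a median of -0.56. In 84 of the 262, all 3 libraries of N at 60 min lay above all 3 of N at 90 min (32.1%, against 12%). Both limbs were called in 6 of the 262 genes (2.29%, against 0.17% of all genes tested), which is 18.8% of the 32 genes called on the early limb and 46.2% of the 13 called on the late limb. Over all genes tested, the 32 genes called on both limbs were 13.1% of those called on the early limb and 30.2% of those called on the late limb. Both counts moved in both directions as single libraries were left out. The highest were 43 for the early limb, without N at 20 min replicate 1, and 19 for the late limb, without N at 60 min replicate 3. The early limb was called in 13 genes without N at 10 min replicate 3 and in 17 without replicate 2 of that group or without replicate 2 or 3 of N at 20 min. The late limb was called in 3 genes without N at 90 min replicate 3, 6 and 7 without its replicates 2 and 1, and 4 and 5 without replicates 1 and 2 of N at 60 min.

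The noN roots showed how far the same genes moved without nitrogen. At 30 min against 5 min in noN, 31 of the 262 genes were higher (11.8%, against 1.02% of all genes tested) and 1 was lower (against 1.36%). At 45 min against 5 min in noN, 39 were higher (14.9%, against 2.9%) and 3 lower (against 3.29%). All of these belonged to the 214 genes, whose median log2 fold changes were 0.43 and 0.41. The 30 min count was 13 and 16 without replicates 3 and 1 of noN at 5 min, and 17 and 20 without replicates 2 and 3 of noN at 30 min. The 45 min count was 22 without noN at 5 min replicate 3, and 25 and 20 without replicates 2 and 3 of noN at 45 min. A gene with an L of 3.15 in noN at 45 min, and another with 3.13, met the level floor through that group alone. Such genes had to be high there and were not set aside.

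When the thresholds of the rise were applied to noN as a description, 79 of the 262 genes met them (30.2%), against 6.01% of the 16512 genes at the level floor. Genes that met that floor only through a noN group were kept in both shares. The full shape, rise and return, was met in noN by 18 (6.87%, against 2.64%). L in noN at 120 min was at least 0.8 above L in noN at 5 min in 93 genes (35.5%, against 9.62%), and in 94 without replicate 4 of that group. The step between 10 and 20 min in noN passed the test in 0 genes upward (against 0.0212% of all genes tested) and in 1 downward (against 0.0053%). DESeq2 called 3 upward and 2 downward. An unadjusted p under 0.05 was found in 50 of the 262, again without a share of all genes tested to set beside it.

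In noN at 15 min, 16 of the 262 genes were higher than the mean of noN at 10 and 20 min (6.11%, against 3.82% of all genes tested) and 0 were lower (against 0.699%), and 1 of the 16 belonged to the 48. The level floor was met through noN at 15 min alone in 5 of the 262 genes, which had to be high there, and 2 of these are among the 16. This count is not a stable one: it was 48 without noN at 20 min replicate 1, the library in which the 48 genes were highest, and 3 without noN at 15 min replicate 3. The step between 60 and 90 min in noN was upward in 11 genes (4.2%, against 0.313%) and downward in 1 (against 0.164%). Of the 11, 1 is among the 2 genes that met the level floor through noN at 90 min alone. Upward calls numbered 21 without noN at 90 min replicate 1 and 4 or 5 without replicate 2 or 3 of noN at 60 or 90 min.

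Set against noN at the same time, the 214 genes were, by their median, first close to noN, then above it and then below it in N roots. The median of the 48 genes lay below noN at every harvest, with N minus noN of -2.16 at 5 min, -0.36 at 45 min and -2.08 at 90 min. The group means of log2(CPM + 1) of the 214 genes differed, N minus noN, by medians of -0.11, 0.03, 0.23, 0.26, 0.47 (30 min), 0.24, -0.10, -0.55 and -0.68 in the order of the harvests. The values at 5, 30, 45 and 120 min use groups that chose the genes. These differences are on the scale of column totals, and TMM scaling, used in the tests, moves them by 0.17 log2 units for 10 min, 0.18 for 15 min, 0.26 for 20 min, 0.0088 for 60 min and -0.08 for 90 min.

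At 10 min, N was higher in 14 of the 262 genes (5.34%, against 7.56% of all genes tested) and lower in 1 (against 4.18%), shares below those of all genes tested. At 15 min, N was higher in 54 (20.6%, against 14.7%) and lower in 33 (12.6%, against 12.5%). Of the 33, 3 are among the 5 genes that met the level floor through noN at 15 min alone. At 20 min, N was higher in 83 (31.7%, against 16.4%) and lower in 26 (9.92%, against 13.8%). The 48 genes that varied together made up 19 of the 33 lower at 15 min and 23 of the 26 lower at 20 min, and none of the higher ones. In the 214 genes the median log2 fold change at 20 min was 0.53, with 159 above 0. Without noN at 20 min replicate 1, N at 20 min was higher in 59 genes and lower in 7. In 94 of the 262 genes, all N libraries lay above all noN libraries at 20 min (35.9%, against 21.4%).

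At 60 min few of the genes passed in either direction. N was higher in 12 of the 262 (4.58%, against 2.5% of all genes tested) and lower in 7 (2.67%, against 1.59%), and the median log2 fold change in the 214 was -0.10. Without N at 60 min replicate 2 the counts were 4 and 1. A gene with an L of 3.15 in noN at 60 min met the level floor through that group alone.

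At 90 min, 225 of the 262 genes had a log2 fold change below 0 for N over noN. N was lower in 103 of the 262 genes (39.3%, against 9.48% of all genes tested) and higher in 5 (1.91%, against 7.59%). Of the 103, 86 belonged to the 214 genes, whose median log2 fold change was -0.70 with 177 below 0, and 17 to the 48, whose median was -2.26. In 150 of the 262, all 3 libraries of N at 90 min lay below all 3 of noN at 90 min (57.3%, against 18%). In 8, all N libraries lay above all noN libraries (3.05%, against 17.1%). The level floor was met through noN groups alone in 31 of the 262 genes, 10 of them among the 103, and through noN at 90 min alone in 2, both among the 103. The count of lower genes was 67 without N at 90 min replicate 3 and between 67 and 109 over the 6 sets that each left out 1 library of this contrast.

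**Figure D3:**
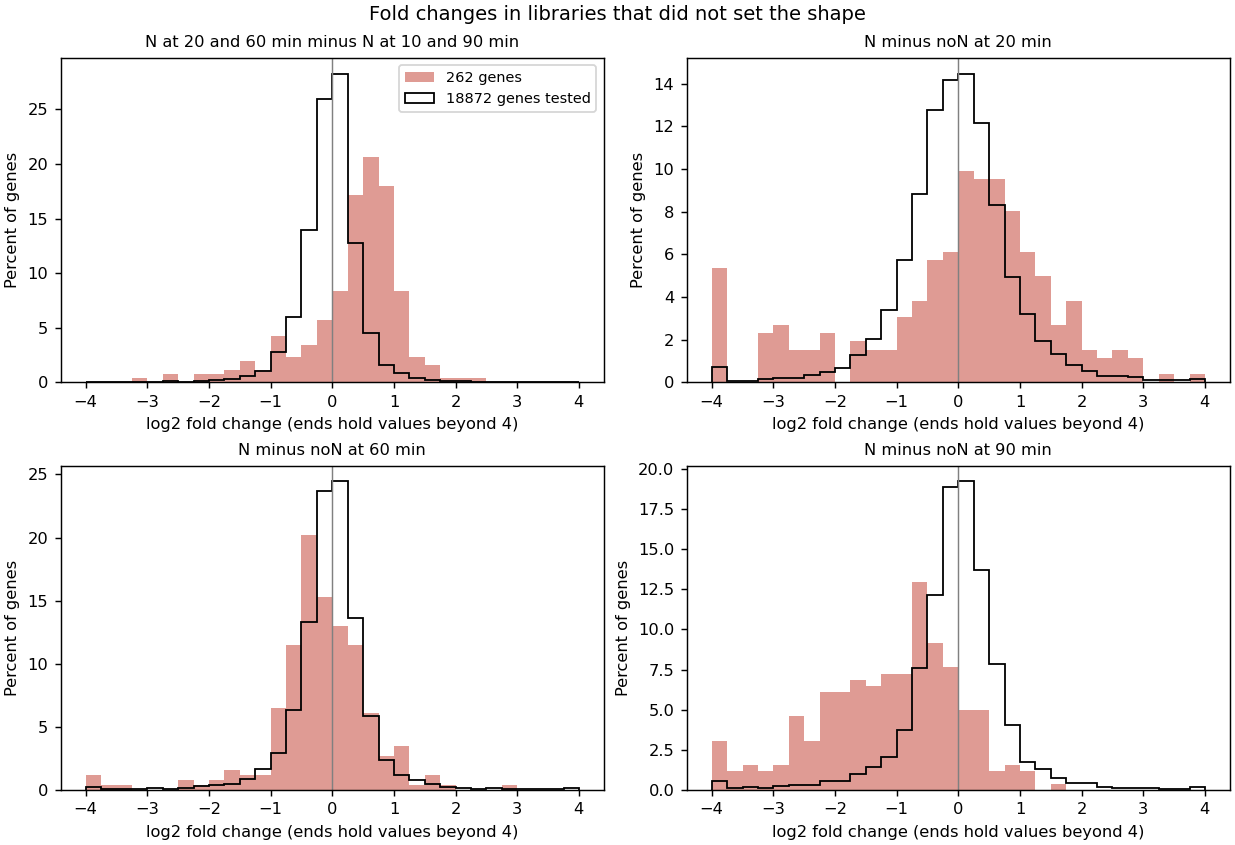
Distribution of log2 fold changes (x, edgeR fit) as percent of genes (y) for the 262 genes (red) and the 18872 genes tested (black outline) in 4 contrasts made of libraries that did not set the shape. The red bars lie mostly right of 0 for N at 20 and 60 min against N at 10 and 90 min (203 genes above 0, 59 below). For N against noN at 90 min they lie mostly left of 0 (225 genes below 0, 37 above). The bar at the left end at 20 min holds genes of the set of 48.

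Some genes were called both at 20 and at 90 min. Higher in N at 20 min and lower in N at 90 min were 27 of the 262 genes, which is 32.5% of the 83 higher at 20 min and 26.2% of the 103 lower at 90 min. Among all 262, 39.3% were lower at 90 min and 31.7% higher at 20 min, so neither share exceeded that of the whole set. Over all genes tested, both held for 485, which is 15.7% of those higher at 20 min and 27.1% of those lower at 90 min, so that the share of the lower genes was near that over all genes. Of the 79 genes that met the rise in noN, all among the 214, 14 had passed as higher in N after 20 min and 38 as lower in N after 90 min. Of the other 135 of the 214, 69 and 48 had done so. The shares of all genes tested were 16.4% and 9.48%, and no difference between these counts was tested.

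Tests of the difference between the media in a time step asked more of the data. The step between 10 and 20 min was larger in N than in noN in 3 of the 262 genes (1.15%, against 0.18% of all genes tested) and smaller in 0 (against 0.0742%). The step between 60 and 90 min was lower in N than in noN in 17 (6.49%, against 0.254%) and higher in 0 (against 0.0848%). All of these belonged to the 214 genes, in which the late step differed by a median of -0.66 log2 units and 191 lay below 0. The late count was 28 without noN at 90 min replicate 1 and 8 to 11 without replicate 2 or 3 of that group, replicate 2 of noN at 60 min, or replicate 1 or 2 of N at 60 min. The early count was 7 without N at 20 min replicate 1. The 4 groups behind each of these differences were also used for the contrasts above, so the values are not separate evidence.

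**Figure D4:**
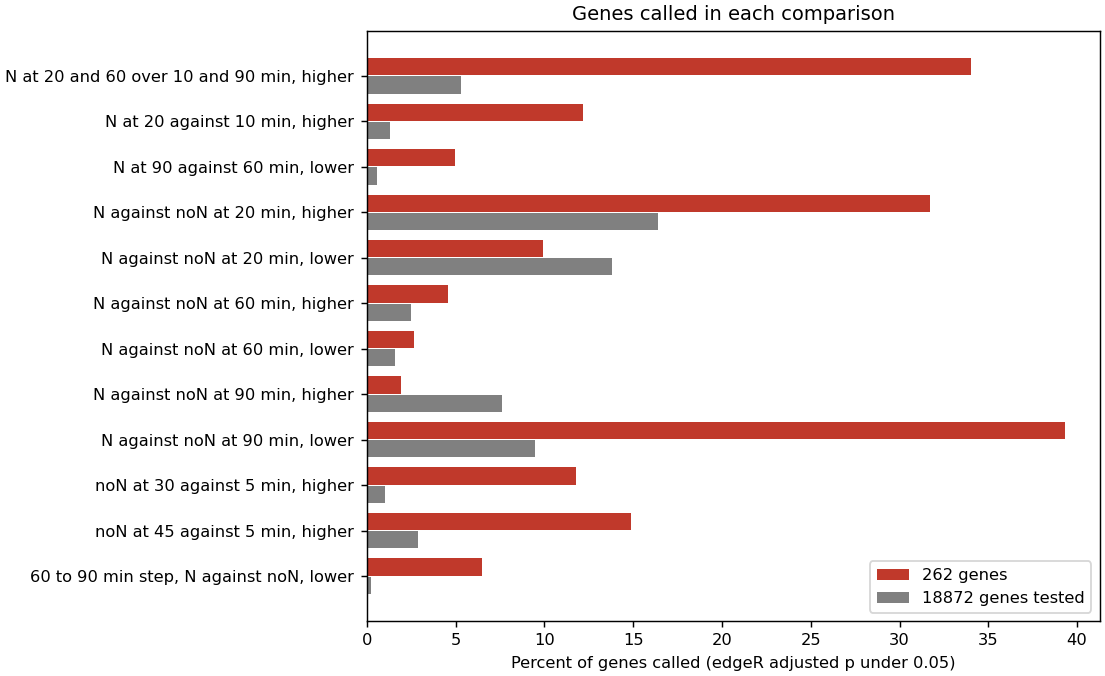
Percent of genes called (x, edgeR adjusted p under 0.05) in each contrast (y) for the 262 genes (red) and the 18872 genes tested (grey). The red bar is longer than the grey one in every contrast drawn except N lower than noN at 20 min and N higher than noN at 90 min.

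The deposited files do not pair the gene IDs with names or functions, and no ID matched the table of gene names at hand, so that roles and pathways cannot be given. By a rule of smallest p, 4 genes were followed in every library: 2 for the step between 10 and 20 min in N and 2 others for the step between 60 and 90 min. They are given in TMM-scaled CPM, and their coordinates are of the AGPv4 assembly.

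Zm00001d048532 lies on the minus strand of chromosome 9, from 157944066 to 157946367, with 1733 bases of exon in 3 exons. It had 21.4, 28.8 and 29.2 CPM in N at 20 min, against 8.21, 9.01 and 6.67 CPM in N at 10 min. All libraries at 20 min lay above all at 10 min, with a log2 fold change of 1.72 ± 0.29 (SE) and an edgeR adjusted p of 0.000417. In noN it had 22.7, 22.7 and 35.9 CPM at 30 min, against 8.59, 3.98 and 7.14 CPM at 5 min. That step was 2.03 ± 0.29 with an edgeR adjusted p of 4.36e-05, so that this gene climbed in both media. At 90 min it had 8.25, 8.23 and 6.81 CPM in N, against 8.81, 14.3 and 13.3 CPM in noN. N lay below noN in every library there, but the difference of -0.65 ± 0.30 did not pass, with an edgeR adjusted p of 0.129. By 120 min its mean was 5.17 ± 0.92 CPM in N (SD, n = 3) and 12.8 ± 3.55 CPM in noN (SD, n = 4).

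Zm00001d017085 lies on the minus strand of chromosome 5, from 184890209 to 184893188, with 2070 bases of exon in 2 exons. It had 172.4, 164.6 and 148.8 CPM in N at 20 min, against 71.96, 68.5 and 77.6 CPM in N at 10 min. The groups did not overlap, and the step was 1.16 ± 0.20 with an edgeR adjusted p of 0.000417. On the way back it had 54.3, 59.8 and 41.4 CPM in N at 90 min, against 121.9, 112.3 and 107.2 CPM in N at 60 min. That step was -1.14 ± 0.20 with an edgeR adjusted p of 0.00171. In noN it did not pass as changed over the same step (0.42 ± 0.19, edgeR adjusted p = 0.35), with 147.5, 238.6 and 210.4 CPM at 90 min. N was 1.94 log2 units below noN at 90 min (-1.94 ± 0.20, edgeR adjusted p = 4.92e-10) and 0.71 ± 0.19 above it at 20 min (edgeR adjusted p = 0.00485). Its noN level also climbed between 5 and 30 min, by 0.77 ± 0.20 (edgeR adjusted p = 0.022). That climb did not pass without any 1 of the libraries of noN at 5 min or without replicate 2 or 3 of noN at 30 min, with adjusted p up to 0.116.

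Zm00001d044106 lies on the minus strand of chromosome 3, from 219392311 to 219393785, with 1425 bases of exon in 2 exons. It had 14.8, 12.0 and 10.8 CPM in N at 90 min, against 44.2, 36.5 and 33.6 CPM in N at 60 min. The groups did not overlap, with a step of -1.61 ± 0.26 and an edgeR adjusted p of 0.000535. At 20 min it had 20.6, 23.8 and 30.8 CPM in N, against 5.28, 10.2 and 8.58 CPM in noN. N was already above noN by 1.24 ± 0.29 at 10 min (edgeR adjusted p = 0.00361) and by 1.27 ± 0.29 at 15 min (edgeR adjusted p = 0.00108). Its step between 10 and 20 min in N did not pass (0.55 ± 0.26, edgeR adjusted p = 0.256). N was above noN by 1.67 ± 0.28 at 20 min (edgeR adjusted p = 2.41e-05) and still by 0.94 ± 0.26 at 60 min (edgeR adjusted p = 0.0237). The 60 min call was lost without replicate 1 or 2 of N or replicate 2 or 3 of noN at that time, with adjusted p up to 0.147. By 90 min N stood 0.71 ± 0.27 below noN, which did not pass (log2 fold change -0.71, edgeR adjusted p = 0.0575).

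Zm00001d007049 lies on the plus strand of chromosome 2, from 220868699 to 220870177, with 1370 bases of exon in 2 exons. It was the most abundant of the 4, with 561.9, 820.6 and 901.2 CPM in N at 20 min, against 57.1, 114.8 and 57.6 CPM in noN at 20 min. N was above noN by 3.32 ± 0.45 log2 units there (edgeR adjusted p = 4.39e-07). It had 119.6, 169.0 and 153.6 CPM in N at 90 min, against 641.0, 929.1 and 504.5 CPM in N at 60 min. That step was -2.23 ± 0.43 with an edgeR adjusted p of 0.00389. Its noN level moved in its own way, with group means of 76.5 ± 33.1 CPM at 20 min, 586.3 ± 167.3 CPM at 60 min and 374.6 ± 21.03 CPM at 90 min (SD, n = 3 each). At 90 min N was below noN by 1.34 log2 units (-1.34 ± 0.42, edgeR adjusted p = 0.0208), a call that held in 10 of 13 other settings, with adjusted p up to 0.0867 without replicate 1 or 3 of N or replicate 3 of noN at 90 min.

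**Figure D5:**
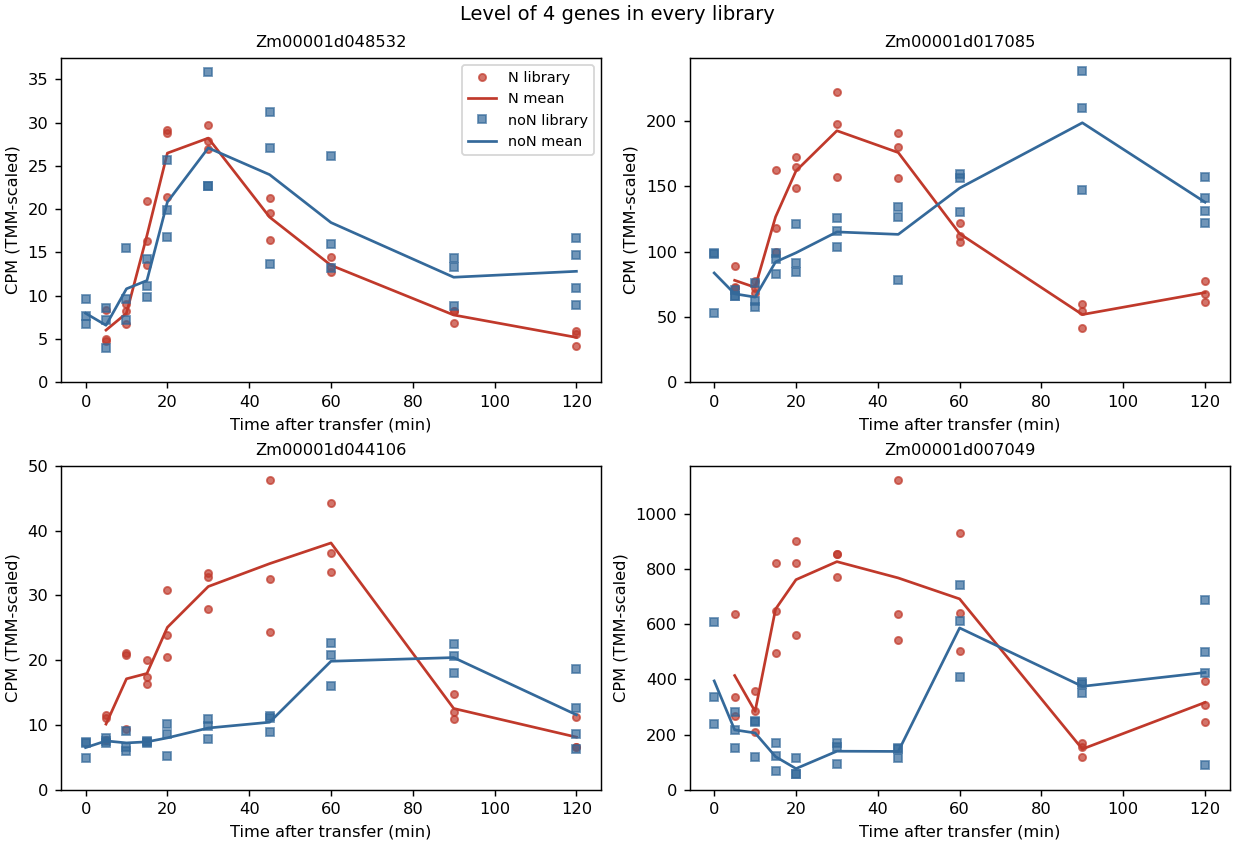
TMM-scaled CPM (y) of the 4 named genes against minutes after transfer (x), with single libraries of N (red circles) and noN (blue squares) and lines through group means. In N each gene is higher at 20, 30 and 60 min than at 90 min, while in noN Zm00001d048532 climbs nearly as in N, Zm00001d017085 is highest at 90 min, and Zm00001d044106 and Zm00001d007049 are lower at 20 to 45 min than at 60 min.

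The 262 genes were short. Their median exon length was 1667 bases, against 2062 in all genes tested, and their median number of merged exons was 3, against 5. A single exon was found in 35 (13.4%, against 9.14%). They lay on all 10 chromosomes, with 2 on unplaced contigs. Chromosome 1 held 39 (14.9%, against 15.6% of all genes tested), chromosome 2 held 38 (14.5%, against 11.5%) and chromosome 5 held 35 (13.4%, against 12.2%). Chromosome 4 held 13 (4.96%, against 9.86% of all genes tested).

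There were 8 pairs of the 262 genes that followed each other along a chromosome with no other tested gene between, 3 on the same strand, 3 convergent and 2 divergent. In a convergent pair on chromosome 10, 1 gene lay on the plus strand from 128387089 to 128391211 and the other on the minus strand from 128391683 to 128395889, with 471 bases between. Reads were counted on the sense strand. This pair was singled out after the values were seen, as the 1 pair of the 8 in which both genes passed on both limbs. In 3 of the others, 1 gene passed on 1 limb, and in 4 no gene passed on either. A same-strand pair on chromosome 4 had values of the opposite sign, with early steps of -1.27 and -3.31 and late steps of 2.07 and 2.04 log2 units that did not pass. At 90 min both genes of a pair were called lower in N than in noN in 4 of the 8 pairs. Single genes were called so in 39.3% of the 262 and 9.48% of all genes tested. In the chromosome 10 pair, the steps between 10 and 20 min in N were 1.17 and 1.46 log2 units, and those between 60 and 90 min in N were -0.97 and -1.60. Both genes were below their noN level in N after 90 min, by log2 fold changes of -1.52 and -1.41.

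The authors' deposited table of regulators and targets, a network deposited with these time courses, lists 97 of the 262 genes as targets (37%), against 12.2% of all genes tested. All 97 belong to the 214 genes. In the authors' deposited table each of them is linked to all 196 regulators, so that only the weights set links apart, and the strongest weight of a gene had a median of 0.569 and a highest value of 8.81, for Zm00001d007049. Of the 97 targets, 55 were higher in N at 20 and 60 min than at 10 and 90 min (56.7%), against 34 of the 117 genes of the 214 that are no targets (29.1%). After 90 min, 61 targets (62.9%) and 25 of the 117 (21.4%) stood lower with nitrogen than with KCl. At 20 min, 59 targets (60.8%) and 24 of the 117 (20.5%) were higher in N than in noN. The shares of all genes tested were 5.28%, 9.48% and 16.4% for these contrasts in turn. The shares over all targets of the network were not counted, so a trait of targets in general cannot be told from one of these genes. The network may draw on these libraries, and targets had higher levels, with a median mean L of 4.56, against 3.58 in the 165 of the 262 that are no targets, so these counts are no independent evidence for its links. The 165 include the 48 genes that varied together, and the level of the 117 alone was not compared. The 15 regulators left out had met the same shape. Of these, 12 were higher in N at 20 and 60 min than at 10 and 90 min (against 5.28% of all genes tested), 10 stood above noN after 20 min (against 16.4%) and 9 below it after 90 min (against 9.48%).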

How the data were processed

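Gene counts were deposited as whole numbers. Per the file headers, they were counted with featureCounts on the sense strand against the AGPv4 annotation of release 37, from reads deduplicated by molecular identifier. Read handling used, per the submitters' processing notes, STAR 2.7.6a, featureCounts 2.0.1, fastp 0.21.0 and UMI-tools 1.1.1. A second deposited table, a score here, holds the authors' quantile normalized values of 18616 genes in 57 libraries, and another holds the authors' network weights, also a score. The sources used here do not say how reads of near-identical copies were counted, so copies within gene families are uncertain.

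All 262 genes passed edgeR's filterByExpr (minimum count 10, minimum total 15), which kept 18872 genes. One edgeR 4.0.16 quasi-likelihood fit (R 4.3.3, TMM, 1 mean per group, 58 libraries, 39 residual degrees of freedom) gave 15 contrasts, with Benjamini-Hochberg adjustment over all genes tested and a call at 0.05. None of them used N at 5, 30, 45 or 120 min. Log2 fold changes come from this fit, and levels L are log2(CPM + 1) computed from the deposited counts. The fit was tested on simulated data. P-values measure the spread between pools of seedlings.

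The 262 genes and the contrasts were chosen with earlier results of these data known. Named genes were the 2 with the smallest p for the rise between 10 and 20 min in N and the 2 others with the smallest p for the fall between 60 and 90 min. The 48 genes were set apart after the values were seen: the first component of the deviations from group means over the 262 genes held 53.6% of their variance, and genes correlated above 0.6 with it were taken. Same-numbered N and noN libraries of a time did not regularly deviate together, so numbers were not used as pairs. Their correlations ran from -0.29 to 0.26, with 7 of 27 pairs above 0.1. The least different replicate pair still had a chi-square of 2.07 per degree of freedom, so no library was taken for a copy. Alternatives were DESeq2 1.42.0 size factors and Wald test, no filter, limma 3.58.1 on the authors' quantile normalized values as log2(value + 1), the replicate block, removal of each library's trend with exon length, only the groups of a contrast, and each library left out.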

Additional observations from a re-analysis of the deposited data

Results flagged for a closer look

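Differences between N and noN in the size of a time step, tested as interaction terms in the edgeR fit, set 5 results apart. The step between 10 and 20 min was larger in N than in noN in 3 of the 262 genes (0.18% of all genes tested were called in that direction). Zm00001d007049 was one of them, with a difference of 2.85 ± 0.60 log2 units and an edgeR adjusted p of 0.0264. Its level moved up in N, by 1.42 ± 0.41 (edgeR adjusted p = 0.0597), and down in noN, by -1.43 ± 0.43 (edgeR adjusted p = 0.235). Neither step passed by itself. The call on the difference held in 13 of 19 other settings. It was lost without replicate 2 of N at 10 min, replicate 2 or 3 of N at 20 min, replicate 1 of noN at 10 min, or replicate 1 or 3 of noN at 20 min (adjusted p up to 0.0879). The step between 60 and 90 min was lower in N than in noN in 17 genes (against 0.254% of all genes tested). Zm00001d017085 was among the 17, with a difference of -1.56 ± 0.28 log2 units and an edgeR adjusted p of 0.00226. Zm00001d044106 was another, with -1.65 ± 0.37 and an edgeR adjusted p of 0.0226. Its call held in 12 of 19 other settings and was lost without replicate 1 of N at 60 min, replicate 2 or 3 of N at 90 min, or replicate 2 or 3 of noN at 60 or 90 min (adjusted p up to 0.107). Dixon's test flagged no library of noN at 120 min, the 1 group of 4, in the levels of these genes. With 4 libraries it flags only a very wide gap, so it cannot show that none stood apart. Over all counts, replicate 4 of that group differed more from its group than any other library: its chi-square against the other 3 replicates was 12.2 to 14.1 per degree of freedom, and the highest of all other replicate pairs was 9.09. It is also the 1 library that the authors' quantile normalized table does not hold. No contrast tested here uses noN at 120 min.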

How the results depend on the processing

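Setting the 48 genes aside after the data were seen left 14 of the 33 genes lower in N at 15 min and 3 of the 26 at 20 min, and moved no other count of called genes by over 1.5 times. With only the groups of a contrast in the fit, the rise between 10 and 20 min in N was called in 17 genes and the fall between 60 and 90 min in 22. N against noN at 10 min then gave 7 higher and 4 lower, at 15 min 55 lower and at 20 min 3 lower. In noN the peak at 15 min then gave 5, the step between 60 and 90 min 1 upward and 0 downward, and the step between 10 and 20 min 0 downward. The media then differed in the late step in 6.

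DESeq2's Wald test gave 24 for the fall in N, 11 lower in N at 60 min, 3 lower in noN at 30 min than at 5 min, 3 higher and 2 lower for noN between 10 and 20 min, 2 lower for noN between 60 and 90 min and 6 for the difference in the rise. Limma on the quantile normalized values gave 23 for the fall, 22 higher at 10 min, 5 lower at 20 min, 2 lower in noN at 30 min than at 5 min and 1 higher for noN between 10 and 20 min. Without the filter, 3 were lower in noN at 30 min than at 5 min, and without the length trend 0 were lower in noN between 10 and 20 min.

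With the replicate number as a block, 24 genes fell between 60 and 90 min in N, against 13 without it, 2 stood lower in N at 10 min and 0 were lower in noN between 10 and 20 min. Whether the numbers stand for a shared harvest was not settled, and they were not used as pairs in the main fit. The block moved no other count by over 1.5 times. The counts for N at 20 and 60 min against 10 and 90 min, and for N lower than noN at 90 min, moved by no more than 1.5 times under each of these settings other than leaving out a library. The cause of these shifts was not tested.

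Leaving out 1 library at a time gave these ranges of genes called. For N alone they were 65 to 90 for 20 and 60 min over 10 and 90 min, 13 to 43 for the rise and 3 to 19 for the fall. N was higher than noN in 6 to 17 at 10 min, 40 to 57 at 15 min, 59 to 83 at 20 min, 4 to 13 at 60 min and 2 to 6 at 90 min. N was lower than noN in 0 to 2 at 10 min, 14 to 25 at 15 min, 3 to 37 at 20 min, 1 to 8 at 60 min and 67 to 109 at 90 min. In noN, the ranges upward were 13 to 27 for 5 to 30 min, 20 to 40 for 5 to 45 min, 0 to 3 for 10 to 20 min, 3 to 48 for the peak at 15 min and 4 to 21 for 60 to 90 min. Downward they were 1 to 3, 1 to 3, 0 to 2 and 0 to 1 for the same steps without the peak. The media differed in the rise in 2 to 7 and in the late step in 8 to 28. Where a group kept 2 libraries, its spread was taken from all groups.

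The choice itself gave 252 to 294 genes with 1 library of N at 5, 30, 45 or 120 min left out, and 106 of the 262 met it in all 12 such sets, 87 of the 214 and 19 of the 48. It gave 331 genes with TMM scaling, 257 of them shared, and 273 with a pseudocount of 0.5, 246 shared. Leaving out replicate 4 of noN at 120 min, also chosen after the data were seen, moved the counts that use that group by less than 1.5 times. No log2 fold change given for the 4 named genes changed sign in the settings tried. Zm00001d017085 was called higher in N at 20 min in 12 of 13 of these, with limma on the quantile normalized values as the exception (adjusted p = 0.0518). Calls were fewer at low levels: for N at 20 and 60 min over 10 and 90 min, 60 of the 131 genes above the median level were called and 29 of the 131 below it, within the 214 genes 57 of 107 and 32 of 107. The part of counting error in this was not tested.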
